A study of Arabidopsis thaliana with 6 samples.

Results

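The mitochondrial genome of Arabidopsis was represented by 146 loci, all those whose identifier starts with ATMG, of 33602 loci in the deposited count tables. The loci were followed across 6 RNA sequencing libraries of sorted leaf cells, which the study calls stomatal lineage ground cells: when a precursor of the stomata divides unequally, the daughter that is bigger takes this name. Per the labels, the libraries came in pairs from 3 transgenic lines of the Columbia ecotype: myrBRXp:myrBRX-YFP, BRXL2p:BRXL2-YFP and BRXp:BRX-YFP. BRX and BRXL2 are related plant proteins of cell polarity and phloem development. Each line carried a YFP fusion driven by the promoter named in the label, and no untransformed line was analysed here. All plants were true-leaf samples taken 9 days post germination, after 2 days in the cold and growth at 22 °C under a cycle of 16 h light, 8 h dark. The material for each library came from about 20000 sorted cells, and 20 ng of RNA went into amplification (integrity number above 8).

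The levels of the genes in the constructs limit what the line names can carry. BRX stood at 32.3 and 72.6 CPM (CPM is the count scaled to library size, with TMM factors) in the myrBRX libraries, at 22.7 and 31.8 CPM in BRXL2, and at 6.10 and 11.7 CPM in the libraries labelled BRX. The line labelled BRX thus had the lowest level of BRX, and it is called by its label here. BRXL2 was highest in its own line, at 1569 and 1377 CPM, against 21.5 and 12.5 CPM in myrBRX and 150 and 95.5 CPM in the libraries labelled BRX. The 5 stomatal lineage markers examined (SPCH, BASL, POLAR, TMM and EPF2) were above 0 in all 6 libraries, with sums of 375 and 196 CPM in myrBRX, 482 and 402 CPM in BRXL2, and 1227 and 476 CPM in the libraries labelled BRX. MUTE, a marker of the later meristemoid, was at 0.0902 and 0.0521 CPM in myrBRX, 13.4 and 11.1 CPM in BRXL2, and 0.762 and 0 CPM in the libraries labelled BRX. The libraries held 25817906 to 42113178 counts, and 3 counts, taken as the limit that a count of 0 allows, corresponded to 0.0637 to 0.0991 CPM.

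Plant mitochondria keep a small genome of their own, which encodes ribosomal and transfer RNAs, some ribosomal proteins, factors of cytochrome c maturation, and core subunits of the respiratory complexes and of the ATP synthase. The other subunits, and all the enzymes that copy and transcribe this genome, come from nuclear genes. Nuclear-encoded factors take part in splicing, editing and trimming its transcripts. In Arabidopsis a large piece of mitochondrial DNA also lies in the nuclear genome, on chromosome 2, so a read from a mitochondrial transcript can match a nuclear locus as well.

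How far that insertion reaches, as assembled in the TAIR10.1 reference, was measured, since it bears on which ATMG counts can be read by themselves. Of all stretches of 50 bases in the 367808-base mitochondrial genome, 70.5% also occurred in a nuclear chromosome, and the block on chromosome 2 spanned bases 3239038 to 3509765. Genes with no such stretch in the nucleus were rrn26 and rrn5 (ribosomal RNAs), cox1 (cytochrome c oxidase), nad9 and nad4L (complex I), atp4 (ATP synthase) and ccmB (cytochrome c maturation), along with the transfer RNA genes trnK(TTT) and trnH(GTG). For rrn18, another ribosomal RNA, the share was 0.371%. At the other end, all stretches of cob, cox3, atp1, atp8, atp9, nad2, nad3, nad4, nad6, rps4, rps7, rps12, rpl5, ccmC and ccmFC had a nuclear match. The coding sequence of cob, the apocytochrome b of complex III, was the same over 1182 bases in both places, and that of cox3, a core subunit of cytochrome c oxidase, over 798 bases. The first exon of rpl2, a ribosomal protein gene, differed at 3 of 917 bases. The first 90 coding bases of cob and of cox3 are shown because, within TAIR10.1, no read from them can be placed on one genome or the other. They lie at chr2:3450863-3450952 (+) and chr2:3312562-3312651 (-). The reads were aligned to TAIR10, whose mitochondrial sequence was not compared here, so the identity may not hold for the alignment behind the counts. The stretch of rpl2 from coding base 475 to 564 is shown as a contrast, at chr2:3411654-3411743 (+), with the bases that differ between the genomes in capitals. The contrast is between genomic sequences. Transcripts, which can be edited, were not examined at these bases. All are from RefSeq TAIR10.1, 5′ to 3′.
cob, mitochondrion and chromosome 2: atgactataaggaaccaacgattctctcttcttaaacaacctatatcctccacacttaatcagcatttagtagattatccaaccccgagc
cox3, mitochondrion and chromosome 2: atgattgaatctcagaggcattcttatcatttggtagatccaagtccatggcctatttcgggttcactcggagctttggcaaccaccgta
rpl2, mitochondrion: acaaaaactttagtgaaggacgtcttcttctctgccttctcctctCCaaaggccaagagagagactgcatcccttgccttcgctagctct
rpl2, chromosome 2: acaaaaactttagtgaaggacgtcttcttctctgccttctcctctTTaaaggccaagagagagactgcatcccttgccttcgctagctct

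The reference does not list the ATMG identifiers themselves, but its notes on nuclear copies point to 53 of the 146. Those notes describe the gene for 24 loci, 13 of which held 0 counts in all 6 libraries. The other loci, which include the most abundant ones, are given here by identifier alone, as the reference gives no role for them. In the gene lists used here ATMG00020, ATMG01390 and ATMG01380 stand as ribosomal RNA, an assignment that the reference could not check. Of the 146 loci, 69 held 0 counts in every library, 77 had a count in at least 1 and 39 in all 6. The number with a count was 62 and 58 in myrBRX, 59 and 56 in BRXL2, and 61 and 45 in the libraries labelled BRX. The loci at 0 often neighboured each other in identifier order: the longest unbroken runs were ATMG00290 to ATMG00370, with 9 loci, ATMG00210 to ATMG00280, with 8, and ATMG00740 to ATMG00800, with 7. Among the loci with a nuclear note 27 of 53 were at 0, and among those without one 42 of 93.

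The mitochondrial loci held 0.0879% and 0.181% of all counts in the myrBRX libraries, 0.609% and 0.330% in BRXL2, and 1.22% and 0.704% in the libraries labelled BRX. Each pair of libraries stood apart from the others, with myrBRX lowest and the libraries labelled BRX highest. The mean share was 0.134 ± 0.0658% in myrBRX, 0.470 ± 0.197% in BRXL2 and 0.963 ± 0.366% in the libraries labelled BRX (SD, n = 2). As a ratio of geometric means, the share in myrBRX was 7.35-fold below that in the libraries labelled BRX and 3.56-fold below that in BRXL2. The share in BRXL2 was 2.07-fold below that in the libraries labelled BRX. The exact two-sided permutation p over the 3 lines was 0.0667 and that of each pair of lines 0.333, which are the smallest values this design can give, so no share could pass 0.05. Counting error was small beside these differences: the exact (Clopper-Pearson) 95% interval was 0.0869% to 0.0888% in myrBRX 1 and 1.22% to 1.23% in BRX 1, for counting error only.

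**Figure D1:**
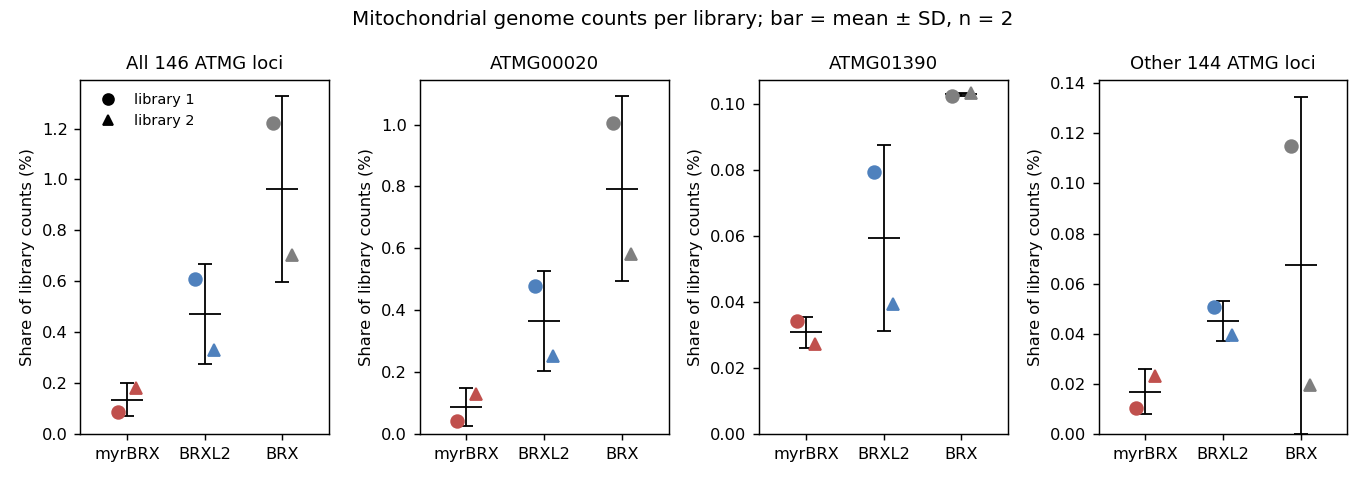
Share of library counts (%, linear axes from 0) held by all 146 ATMG loci, by ATMG00020, by ATMG01390 and by the other 144 loci; circles and triangles are libraries 1 and 2 of a line, bars the mean ± SD (n = 2; the lower SD bar of the last panel is cut at 0). The first 3 panels keep the lines apart, while in the last BRX 2, at 0.0197%, falls between the myrBRX libraries at 0.0105% and 0.0231%.

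A pair of loci, both listed as ribosomal RNA, held most of these counts, so the share mainly follows these loci. ATMG00020 had 16886 and 53555 counts in myrBRX, 172245 and 105955 in BRXL2, and 259198 and 206029 in the libraries labelled BRX. ATMG01390 had 13350 and 11271 counts in myrBRX, 28610 and 16639 in BRXL2, and 26503 and 36707 in the libraries labelled BRX. Of the 49 ATMG loci that passed the filter on low counts, these were the 2 whose 3 lines did not overlap in the order myrBRX, BRXL2, libraries labelled BRX, on the CPM scale. Over all 18174 loci tested, 2.52% had that order, so the number of ATMG loci with it is near the background.

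The balance between the 2 abundant loci was not constant. ATMG00020 made up 49.2% and 72.0% of the mitochondrial counts in myrBRX, 78.6% and 76.1% in BRXL2, and 82.2% and 82.5% in the libraries labelled BRX. ATMG01390 made up 38.9% and 15.2% in myrBRX, 13.1% and 11.96% in BRXL2, and 8.40% and 14.7% in the libraries labelled BRX. The ratio of the first to the second was 1.26 and 4.75 in myrBRX, 6.02 and 6.37 in BRXL2, and 9.78 and 5.61 in the libraries labelled BRX. The library myrBRX 1 thus stood lowest in the share of ATMG00020 and highest in that of ATMG01390, and the ratios of the 3 lines overlapped only between BRXL2 and the libraries labelled BRX. With ATMG00020 left out of the total, the mean share of ATMG01390 was 65.4% in myrBRX, 55.6% in BRXL2 and 65.6% in the libraries labelled BRX. The libraries of a line differed in this share. Beside the ATMG01390 counts given above, the other 144 loci had 4106 and 9508 counts in myrBRX. They had 18209 and 16573 in BRXL2 and 29673 and 6977 in the libraries labelled BRX.

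Without these 2 loci the lines no longer kept their order. The other 144 loci held 0.0105% and 0.0231% of the library in myrBRX, 0.0506% and 0.0394% in BRXL2, and 0.115% and 0.0197% in the libraries labelled BRX. BRX 1 was the highest of the 6 libraries and BRX 2 lay among the myrBRX libraries, so that myrBRX and BRXL2 were the only lines that did not overlap. The exact permutation p over the 3 lines was 0.533. The ratio between the libraries labelled BRX was 5.85, against 1.74 for all mitochondrial loci, while it was 2.20 in myrBRX and 1.29 in BRXL2.

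Other measures of the libraries also differed between the lines, some in the order of the mitochondrial share and some not. Chloroplast loci held 0.471% and 1.16% of the counts in myrBRX, 1.11% and 1.99% in BRXL2, and 4.12% and 3.06% in the libraries labelled BRX. The 5 mesophyll markers (LHCB1.1, RBCS1A, RBCS3B, CA1 and GLK1), all above 0 in every library, summed to 210 and 228 CPM in myrBRX, 669 and 423 CPM in BRXL2, and 963 and 339 CPM in the libraries labelled BRX. RBCS1A made up most of that sum, while LHCB1.1 was highest in BRXL2, at 29.3 and 30.4 CPM. CA1 and GLK1 were lower in BRXL2 than in myrBRX, for CA1 at 6.88 and 9.50 CPM against 13.9 and 15.7 CPM. The 5 markers of dividing cells (CYCB1;1, CYCB1;2, CYCA1;1, AUR1 and KNOLLE), none at 0, summed to 77.9 and 49.7 CPM in myrBRX, 691 and 188 CPM in BRXL2, and 905 and 500 CPM in the libraries labelled BRX. The 5 guard cell markers (KAT1, OST1, TGG1, TGG2 and FAMA) summed to 960 and 431 CPM in myrBRX, 611 and 161 CPM in BRXL2, and 105 and 137 CPM in the libraries labelled BRX, with KAT1 at 0 in BRX 2. TGG1 carried that sum, at 891 and 385 CPM in myrBRX, 489 and 93.6 CPM in BRXL2, and 82.4 and 114 CPM in the libraries labelled BRX. OST1 was likewise highest in myrBRX, whereas TGG2 was lowest there and FAMA, at 13.9 to 18.5 CPM in 5 libraries and 55.7 CPM in BRXL2 1, did not follow. KAT1 was highest in BRXL2, at 5.74 and 10.3 CPM, against 1.41 and 0.0260 CPM in myrBRX. The 5 phloem markers (APL, SEOR1, SUC2, BAM3 and AHA3) summed to 474 and 251 CPM in BRXL2, against 4.78 and 8.51 CPM in myrBRX and 13.8 and 4.66 CPM in the libraries labelled BRX, where APL was at 0. BAM3 was at 0 in myrBRX 2 and BRX 2. All but SUC2, which was at 1.02 and 3.08 CPM in BRXL2, were highest in BRXL2. AT1G79245, the largest single locus, held 6.89% and 6.13% of the counts in myrBRX, 4.82% and 8.95% in BRXL2, and 9.81% and 19.7% in the libraries labelled BRX. The part of these in the mitochondrial share was not tested, and in such bulk samples fewer cells of a type and less RNA per cell cannot be told apart.

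Each locus was then tested in a fit across all 18174 loci that passed the filter (edgeR's quasi-likelihood test, p adjusted by Benjamini-Hochberg over all of them). None of the 49 tested ATMG loci passed an adjusted p of 0.05 in any comparison. The percentage of all loci that passed was 0 for myrBRX against the libraries labelled BRX, 0.0935 for BRXL2 against the libraries labelled BRX, 0.0495 for myrBRX against BRXL2, and 0.226 for any difference among the 3 lines. At an unadjusted p under 0.05 there were 9 ATMG loci in the first comparison (8 lower and 1 higher), against 14.2% of all loci in either direction and 7.1% in the lower one. There were 3 in the second (2 lower and 1 higher), against 8.85% and 3.09% of all loci, and 3 in the third, all lower, against 12.4% and 6.94%. DESeq2 called 4 ATMG loci in the first comparison, namely ATMG00020, ATMG00080, ATMG00580 and ATMG01120, of the 47 to which it gave an adjusted p, against 8.07% of all loci. It called 0 in the other pairs of lines (3.54% and 6.32% of all loci), and limma-voom called 0 throughout.

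In myrBRX against the libraries labelled BRX, 34 of the 49 loci had a log2 fold change below 0, against 50.7% of all loci tested. The median was -0.99, where that of all loci was -0.03. In 18 loci both myrBRX libraries lay below both libraries labelled BRX (background 22.4% of all loci) and in 6 both lay above (26.7%). For BRXL2 against the libraries labelled BRX, 30 of 49 were below 0 (background 49%) with a median of -0.22 (all loci 0.03). In 9 the lines did not overlap and BRXL2 was lower (14.9%), and in 6 it was higher (18.3%). In myrBRX against BRXL2, 39 of 49 were below 0 (background 53.7%) with a median of -0.86 (all loci -0.15). In 21 the lines did not overlap and myrBRX was lower (24.7%), and in 1 it was higher (24.3%). The comparisons share libraries. The first and second medians rested on BRX 1: without it they were 0.07 and 1.05, and 27 and 15 of 54 tested loci were below 0. The third was -0.92 without BRX 1 and between -1.50 and -0.55 with any 1 of the 6 libraries left out.

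**Figure D2:**
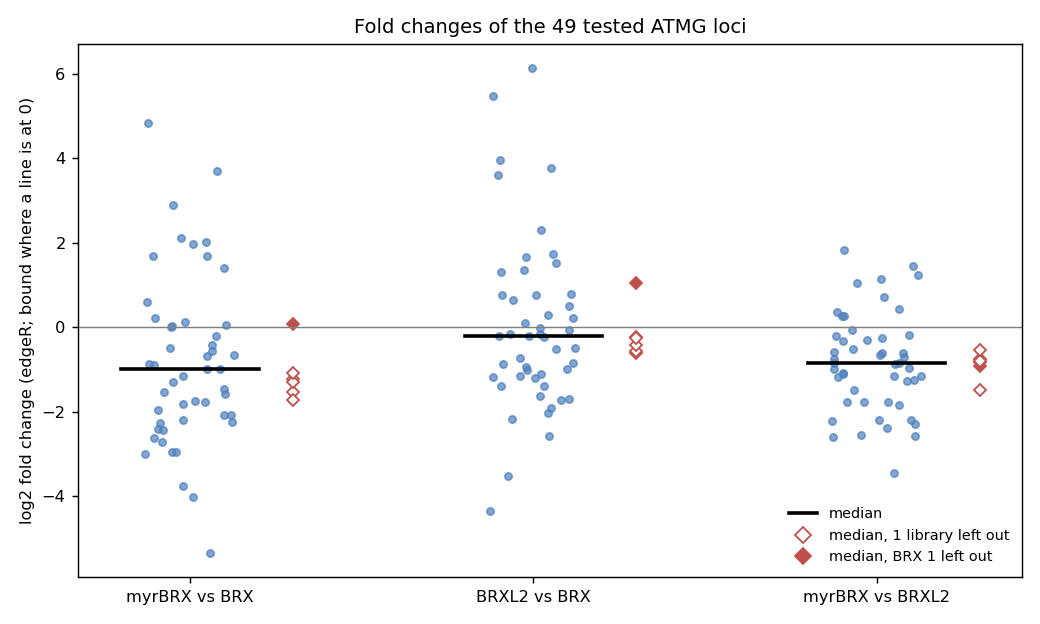
Log2 fold changes of the 49 tested ATMG loci (points) in the 3 comparisons of lines, with their median (black line; where a line held 0 counts the point is the bound set by 3 counts in each of its libraries). Diamonds are the medians with 1 library left out; the filled one, without BRX 1, lies at 0.07 and 1.05 in the comparisons with the libraries labelled BRX and at -0.92 in the third.

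ATMG00020 stood at 508 and 1394 CPM in myrBRX, 3660 and 2834 CPM in BRXL2, and 7905 and 6808 CPM in the libraries labelled BRX. Its log2 fold change was -2.95 ± 1.20 (SE) for myrBRX against the libraries labelled BRX (adjusted p = 0.309), -1.18 ± 1.13 for BRXL2 against the libraries labelled BRX (0.826) and -1.77 ± 1.15 for myrBRX against BRXL2 (0.556). The lines did not overlap, and the first of these had an unadjusted p of 0.030 that did not pass after adjustment over all loci. It passed with DESeq2 (adjusted p = 0.00645).

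ATMG01390 stood at 401 and 293 CPM in myrBRX, 608 and 445 CPM in BRXL2, and 808 and 1213 CPM in the libraries labelled BRX. The lines kept the same order with smaller steps. Its log2 fold changes were -1.54 ± 0.89 (adjusted p = 0.437), -0.94 ± 0.87 (0.823) and -0.60 ± 0.87 (0.822) in the same 3 comparisons.

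The third locus by mean share of the mitochondrial counts was ATMG00090, at 34.7 and 97.0 CPM in myrBRX, 117 and 176 CPM in BRXL2, and 198 and 42.1 CPM in the libraries labelled BRX. On this scale the libraries labelled BRX spanned all the others except myrBRX 1, which was lower still. As a part of the counts left without ATMG00020 and ATMG01390, however, it made up 28.1% and 39.2% in myrBRX and 30.2% and 39.7% in BRXL2, and 21.9% and 18.2% in the libraries labelled BRX, which lay below the other 4. ATMG01360, also among the 10 most abundant, was at 3.73 and 13.01 CPM in myrBRX, 8.39 and 10.7 CPM in BRXL2, and 20.1 and 39.0 CPM in the libraries labelled BRX, both of which lay above the other 4. ATMG01380 was low, with 8 and 63 counts in myrBRX, 19 and 17 in BRXL2, and 40 and 48 in the libraries labelled BRX.

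BRX 1 stood out in several loci. ATMG00080 was at 8.66 and 7.18 CPM in myrBRX, 13.9 and 21.7 CPM in BRXL2, and 205 and 9.19 CPM in the libraries labelled BRX. ATMG00580 was at 0.271 and 0.677 CPM in myrBRX, 0.467 and 1.42 CPM in BRXL2, and 38.4 and 0.430 CPM in the libraries labelled BRX. ATMG01120 was at 3.13 and 10.9 CPM in myrBRX, 10.4 and 14.6 CPM in BRXL2, and 97.9 and 15.4 CPM in the libraries labelled BRX. In ATMG00080 and ATMG00580 BRX 1 was above the other 5 libraries while BRX 2 lay among them; in ATMG01120 both were above, BRX 2 only just.

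These 3 loci had the lowest p among the ATMG loci that were lower in myrBRX against the libraries labelled BRX, and none passed. The log2 fold change was -3.75 ± 1.20 for ATMG00080 (adjusted p = 0.246), -5.34 ± 1.82 for ATMG00580 (0.262) and -3.02 ± 1.05 for ATMG01120 (0.268). ATMG00080 and ATMG00580 passed in edgeR without the filter (0.0104 and 0.0183; 3.21% of all loci passed). They also passed without BRX 2 (0.031 and 0.0371; 1.66% of all loci), where BRX 1 is alone and is assumed to vary like the libraries of the other lines. Without BRX 1 the log2 fold change of ATMG00580 was 0.15, so its direction reversed. The fourth, ATMG00060, was at 1.35 and 4.29 CPM in myrBRX, 19.4 and 6.82 CPM in BRXL2, and 35.0 and 8.69 CPM in the libraries labelled BRX, with a log2 fold change of -2.95 ± 1.12 (0.29) and no overlap between these 2 lines.

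For BRXL2 against the libraries labelled BRX the same loci gave -4.36 ± 1.73 for ATMG00580 (adjusted p = 0.512), -2.59 ± 1.14 for ATMG00080 (0.551) and -2.18 ± 1.02 for ATMG01120 (0.573). Without BRX 1 the first was 1.13 and the second 0.95, so both directions rested on that library. In this comparison ATMG00150 was among the loci of lowest p in the lower direction, with 0 counts in both BRXL2 libraries against 49 and 5 counts in the libraries labelled BRX; myrBRX had 13 and 0.

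The ATMG loci of lowest p above the libraries labelled BRX were low in level. ATMG00665 had 9 and 21 counts in myrBRX, 84 and 43 in BRXL2, and 0 and 0 in the libraries labelled BRX. Measured against 3 counts in each library at 0, it was at least 4.29-fold higher in myrBRX (adjusted p = 0.334) and at least 15.4-fold higher in BRXL2 (0.486). ATMG00665 and the loci that follow in this paragraph could pass the filter only through myrBRX or BRXL2, not through the libraries labelled BRX. ATMG01020 had 15 and 12 counts in myrBRX, 0 and 12 in BRXL2, and 0 and 0 in the libraries labelled BRX. ATMG00130 had 22 and 16 counts in myrBRX, 123 and 1 in BRXL2, and 1 and 0 in the libraries labelled BRX. ATMG01000 had 7 and 44 counts in myrBRX, 14 and 42 in BRXL2, and 0 and 3 in the libraries labelled BRX. ATMG00140 had 15 and 2 counts in myrBRX, 103 and 32 in BRXL2, and 2 and 0 in the libraries labelled BRX.

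Between myrBRX and BRXL2, which did not overlap in the share of the 144 loci either, the lowest p values belonged to ATMG01170, ATMG00640, ATMG01320 and ATMG00513, all lower in myrBRX by their log2 fold change. ATMG01170 was at 7.25 and 7.89 CPM in myrBRX and at 50.9 and 19.5 CPM in BRXL2 (-2.22 ± 0.86, adjusted p = 0.332). ATMG00640 was at 3.19 and 5.91 CPM in myrBRX and at 14.1 and 33.8 CPM in BRXL2 (-2.39 ± 0.94, 0.338). ATMG00513 was at 2.56 and 4.40 CPM in myrBRX and at 13.9 and 18.4 CPM in BRXL2 (-2.21 ± 1.08, 0.43). In each the 2 lines did not overlap. In the opposite direction ATMG00520 had 246 and 44 counts in myrBRX, of which myrBRX 1 was the highest of the 6 libraries, 32 and 64 in BRXL2, and 44 and 40 in the libraries labelled BRX. ATMG01350 was the locus with both myrBRX libraries above both of BRXL2 on the CPM scale, by little, with 8 and 16 counts in myrBRX, 11 and 3 in BRXL2, and 32 and 10 in the libraries labelled BRX.

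**Figure D3:**
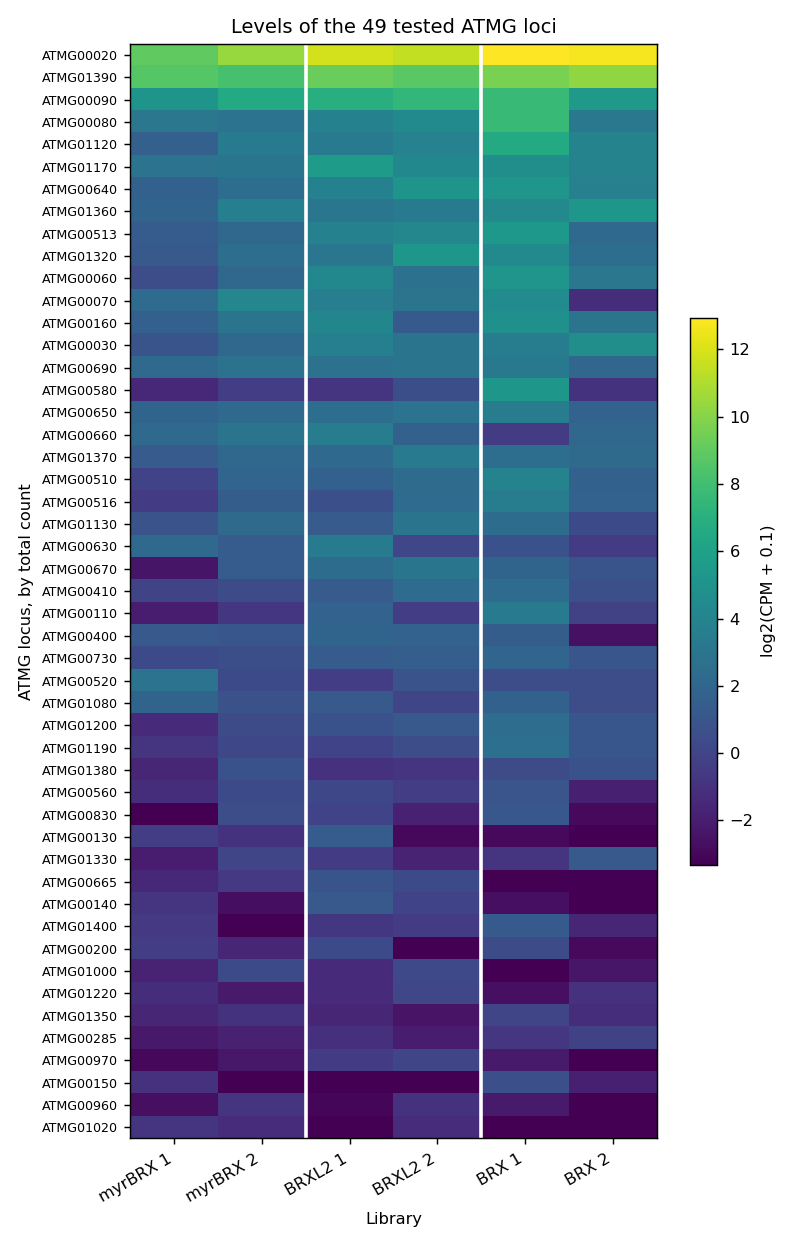
Levels of the 49 tested ATMG loci as log2(CPM + 0.1), with loci in rows by total count and the 6 libraries in columns, myrBRX, BRXL2 and the libraries labelled BRX from left to right. ATMG00020 and ATMG01390 form the top rows in every library; ATMG00580 is high in BRX 1 (38.4 CPM) and at most 1.42 CPM in the other 5 libraries, and ATMG00070 is low in BRX 2 (0.330 CPM).

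The spread within a line was wide for the low loci. The median ratio between the 2 libraries of a line, over tested ATMG loci counted in both, was 2.52 in myrBRX, 2.19 in BRXL2 and 3.74 in the libraries labelled BRX, against 1.76, 2.26 and 2.52 for all tested loci. In the libraries labelled BRX, 38 of 49 tested ATMG loci were higher in BRX 1 than in BRX 2, where this was so for 45.4% of all tested loci. The widest ratios were 97.7 for ATMG00130, with 123 counts in BRXL2 1 and 1 in BRXL2 2, and, in the libraries labelled BRX, 89.3 for ATMG00580, with 1258 and 13 counts, and 68.4 for ATMG00070, with 741 and 10 counts. ATMG00070 had 171 and 712 counts in myrBRX and 571 and 283 in BRXL2. For comparison, the ratio of ATMG00020 was 2.74 in myrBRX, 1.29 in BRXL2 and 1.16 in the libraries labelled BRX.

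Of the 24 loci with a gene description, 7 passed the filter, and together the described loci were a small part of the mitochondrial counts: 0.768 ± 0.150% in myrBRX, 0.875 ± 0.687% in BRXL2 and 0.309 ± 0.217% in the libraries labelled BRX (SD, n = 2). With ATMG00020, ATMG01390 and ATMG01380 left out of the total, the means were 6.26%, 8.07% and 5.26% in the same order. These are not the shares of all genes of known role, since a description came only from a note on a nuclear copy. The gene lists used here hold 41 ATMG loci, of which 17 have a description. The most counted of the described loci was ATMG01320, described as NADH dehydrogenase 2B, a piece of the complex I subunit whose messenger RNA is joined in plants from separate transcripts. It was at 2.26 and 5.88 CPM in myrBRX, 8.27 and 39.3 CPM in BRXL2, and 22.1 and 5.72 CPM in the libraries labelled BRX. BRXL2 2 was the highest, and the myrBRX libraries overlapped with the libraries labelled BRX but not with BRXL2. The log2 fold change of myrBRX was -2.54 ± 1.11 against BRXL2 (adjusted p = 0.383) and -1.77 ± 1.08 against the libraries labelled BRX (0.458).

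Among the tested loci with a description, 3 belonged to the ATP synthase, which turns the proton gradient into ATP. Loci given by identifier alone were not assigned to it, so others may belong there. ATMG01190, described as its subunit 1, the alpha subunit of the catalytic head, had 15 and 40 counts in myrBRX, 40 and 49 in BRXL2, and 201 and 60 in the libraries labelled BRX. ATMG00410, described as subunit 6, part of the proton channel, had 30 and 49 counts in myrBRX, 116 and 189 in BRXL2, and 166 and 44 in the libraries labelled BRX. ATMG01080, described as subunit 9, which forms the rotating ring, had 123 and 60 counts in myrBRX, 107 and 35 in BRXL2, and 105 and 40 in the libraries labelled BRX. On the CPM scale the myrBRX libraries lay below both libraries labelled BRX for ATMG01190 (-2.44 ± 1.67, adjusted p = 0.508), while ATMG01080 was at 3.699 and 1.56 CPM in myrBRX, 2.27 and 0.936 CPM in BRXL2, and 3.20 and 1.32 CPM in the libraries labelled BRX, with every pair of lines overlapping.

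The remaining described loci were low. ATMG00730, the subunit 3 of cytochrome c oxidase, had 39 and 54 counts in myrBRX, 123 and 108 in BRXL2, and 124 and 59 in the libraries labelled BRX. ATMG00560, whose nuclear copy holds the chromosome 2 stretch of rpl2 shown above, had 11 and 44 counts in myrBRX, 49 and 25 in BRXL2, and 60 and 5 in the libraries labelled BRX. ATMG00960, a cytochrome c assembly protein, had 2 and 17 counts in myrBRX, 1 and 15 in BRXL2, and 4 and 0 in the libraries labelled BRX. The described loci at 0 in all 6 libraries included ATMG00220 (apocytochrome b), ATMG00480 (ATPase subunit 8), ATMG00900 (a cytochrome c biogenesis protein), ATMG00990 and ATMG01275 (NADH dehydrogenase 3 and 1A), and the ribosomal protein loci ATMG00210, ATMG00290, ATMG00980 and ATMG01270.

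For several of these, counts lay on the nuclear copy instead. ATMG00220 was at 0 throughout, while its copy AT2G07727, which holds the cob sequence above, had 64 and 109 counts in myrBRX, 573 and 247 in BRXL2, and 300 and 33 in the libraries labelled BRX. ATMG00210, described as ribosomal protein L5, was likewise at 0, and its copy AT2G07725 had 55 and 140 counts in myrBRX, 240 and 426 in BRXL2, and 1942 and 435 in the libraries labelled BRX. The copy AT2G07696 of ATMG01270, described as ribosomal protein S7, had 65 and 18 counts in myrBRX, 158 and 82 in BRXL2, and 396 and 82 in the libraries labelled BRX. The copy AT2G07785 of ATMG01275 had 49 and 31 counts in myrBRX, 123 and 193 in BRXL2, and 152 and 117 in the libraries labelled BRX.

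In other pairs the counts were divided, or lay on the mitochondrial locus. For cox3, whose coding sequence is the same in both places in TAIR10.1, ATMG00730 had the counts given above. The copy AT2G07687 had 34 and 70 in myrBRX, 32 and 186 in BRXL2, and 760 and 96 in the libraries labelled BRX. The copy AT2G07698 of ATMG01190 had 180 and 211 counts in myrBRX, 563 and 293 in BRXL2, and 559 and 200 in the libraries labelled BRX, or 83.2% of the counts of that pair. The copy AT2G07715 of ATMG00560 held 87.0% of its pair. By contrast AT2G07741, the copy of ATMG00410, was at 0 in all libraries, and AT2G07689, the copy of ATMG01320, held 1.20% of its pair. Of 55 pairs of an ATMG locus and a nuclear copy, 18 had counts on the copy only, 10 on the mitochondrial locus only, 16 on both and 11 on neither. Among the 33 pairs in which every 50-base stretch of the nuclear sequence occurred in the mitochondrial genome, these numbers were 14, 2, 7 and 10. How reads with several matches were counted is not given in the sources used here, so a 0 at a locus with such a copy does not show that its transcript was absent, and the values of these loci are uncertain.

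**Figure D4:**
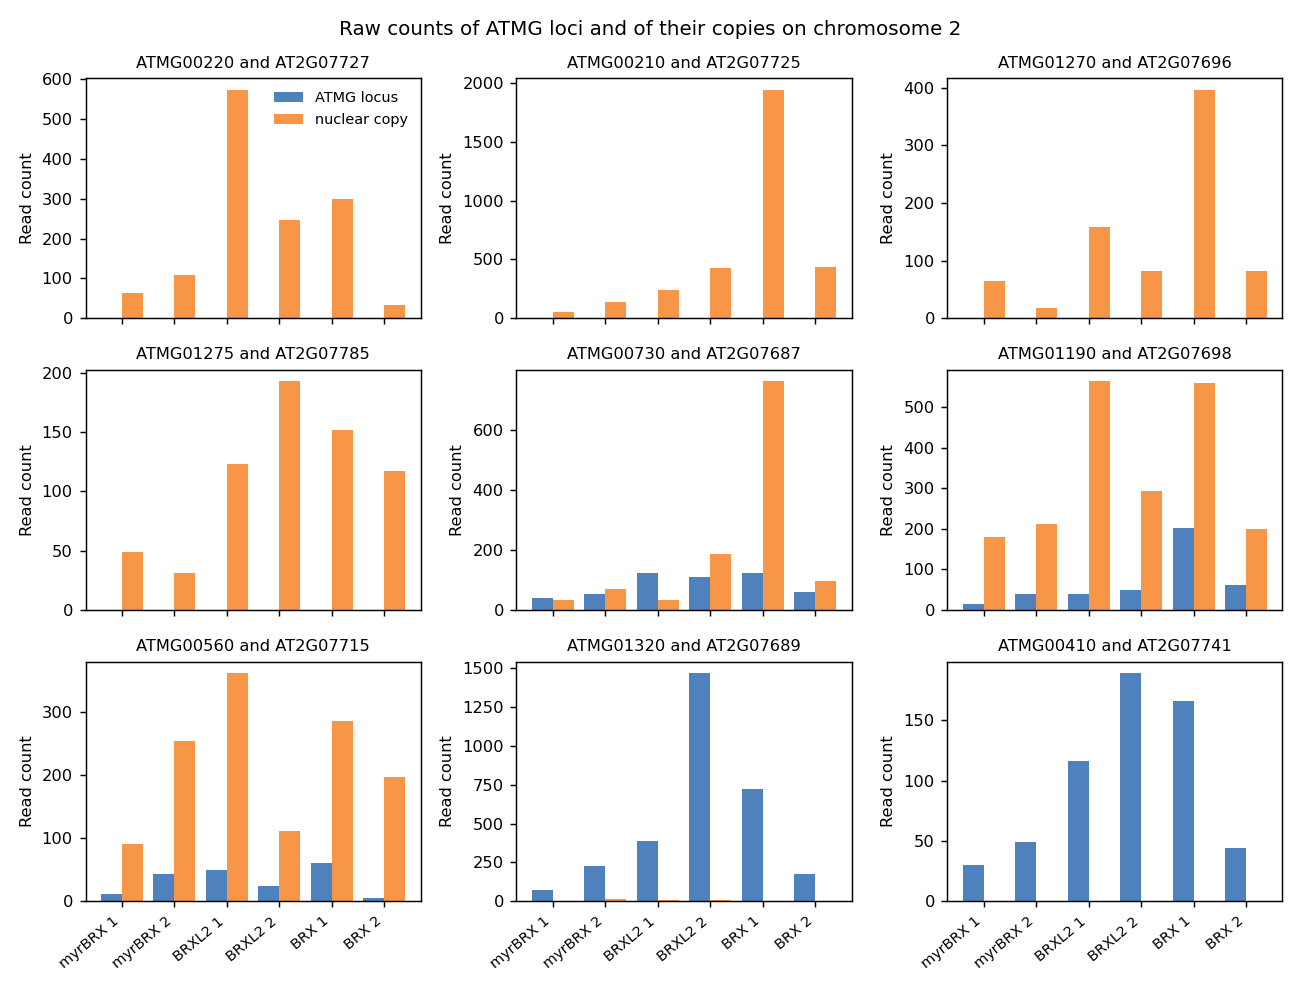
Raw read counts (linear axes from 0) of 9 ATMG loci and of their copies on chromosome 2 in the 6 libraries. The first 4 panels have counts on the copy and 0 on the ATMG locus, the next 3 have counts on both, and the last 2 have nearly all or all counts on the ATMG locus.

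The 54 nuclear copies in the tables held 967 and 1638 counts in myrBRX, 3235 and 2892 in BRXL2, and 5179 and 1579 in the libraries labelled BRX. For every 100 counts on the 144 ATMG loci the copies had 23.6 and 17.2 in myrBRX, 17.8 and 17.5 in BRXL2, and 17.5 and 22.6 in the libraries labelled BRX. Their summed counts thus ran beside those of the 144 loci, BRX 2 again low and BRX 1 high. Of the 54, 23 were tested and none passed in edgeR. The median log2 fold change of the 23 was -1.104 for myrBRX against the libraries labelled BRX, -0.26 for BRXL2 against the libraries labelled BRX and -0.99 for myrBRX against BRXL2, against -0.03, 0.03 and -0.15 for all loci. An unadjusted p under 0.05 was found for 2, 0 and 0 copies, against 14.2%, 8.85% and 12.4% of all loci.

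Nuclear genes that serve the mitochondria were examined as 4 lists, and no member passed in any comparison of the edgeR fit described above. The nuclear subunits of the respiratory chain, 24 of 24 tested, had median log2 fold changes of 0.36 for myrBRX against the libraries labelled BRX, -0.0043 for BRXL2 against the libraries labelled BRX and 0.22 for myrBRX against BRXL2. They held 0.0708% and 0.119% of the counts in myrBRX, 0.1004% and 0.0909% in BRXL2, and 0.149% and 0.110% in the libraries labelled BRX, so the BRXL2 libraries lay between those of myrBRX, and both libraries labelled BRX lay above BRXL2, while BRX 2 lay below myrBRX 2. In the order of those comparisons, 4, 3 and 1 members had an unadjusted p under 0.05, against 14.2%, 8.85% and 12.4% of all loci.

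Within that list the members went different ways. SDH2-1, an iron-sulphur subunit of succinate dehydrogenase, was at 133 and 93.6 CPM in myrBRX, 23.2 and 36.7 CPM in BRXL2, and 28.1 and 36.0 CPM in the libraries labelled BRX, the myrBRX libraries standing above the other 4. Its log2 fold change in myrBRX was 1.82 ± 0.76 against the libraries labelled BRX (adjusted p = 0.315) and 1.92 ± 0.77 against BRXL2 (0.344). CYTC-2, a cytochrome c gene, was at 29.7 and 60.3 CPM in myrBRX, 3.08 and 31.6 CPM in BRXL2, and 5.09 and 4.10 CPM in the libraries labelled BRX (myrBRX against the libraries labelled BRX 3.29 ± 1.098, adjusted p = 0.258; 0.0304 with DESeq2). AT5G08680, 1 of 3 near-identical genes of the ATP synthase beta subunit whose reads may be shared, was at 32.0 and 32.3 CPM in myrBRX, 50.6 and 34.2 CPM in BRXL2, and 151 and 205 CPM in the libraries labelled BRX. Its log2 fold change for myrBRX against the libraries labelled BRX was -2.47 ± 0.78 (adjusted p = 0.239; 0.0208 with DESeq2). Its near-copy AT5G08670 was at 58.2 and 81.7 CPM in myrBRX, 106 and 92.4 CPM in BRXL2, and 132 and 381 CPM in the libraries labelled BRX (0.341). AT3G27240, a cytochrome c1 gene, was at 9.80 and 16.6 CPM in myrBRX, 10.8 and 11.96 CPM in BRXL2, and 78.9 and 18.9 CPM in the libraries labelled BRX (BRXL2 against the libraries labelled BRX 0.547). AT3G15640, a cytochrome c oxidase subunit, was at 2.17 and 10.7 CPM in myrBRX, 10.99 and 23.1 CPM in BRXL2, and 1.43 and 1.49 CPM in the libraries labelled BRX (BRXL2 against the libraries labelled BRX 3.54 ± 1.19, adjusted p = 0.431; 0.0307 with DESeq2).

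The factors of mitochondrial DNA and transcription, 11 of 11 tested, had medians of -0.41, -0.61 and -0.25 in the 3 comparisons, and those of mitochondrial RNA processing, 12 of 13 tested, had -0.38, -0.18 and -0.11. An unadjusted p under 0.05 was found for 2, 0 and 0 members of the first and for 1, 1 and 1 of the second, against the same 14.2%, 8.85% and 12.4% of all loci. The phage-type RNA polymerase gene MGP3, which transcribes mitochondrial genes, was at 10.8 and 671 CPM in myrBRX, 65.4 and 60.8 CPM in BRXL2, and 57.3 and 13.7 CPM in the libraries labelled BRX. The myrBRX libraries were thus the lowest and the highest of the 6. AT1G74120, a factor of the mTERF family, was at 0.571 and 0.0260 CPM in myrBRX, 1.87 and 0.535 CPM in BRXL2, and 9.79 and 4.39 CPM in the libraries labelled BRX (adjusted p = 0.308 for myrBRX against the libraries labelled BRX). The intron maturase gene AT5G46920 was at 7.64 and 3.49 CPM in myrBRX, 3.17 and 8.21 CPM in BRXL2, and 0.488 and 0.198 CPM in the libraries labelled BRX, which lay below the other 4 (adjusted p = 0.283 for myrBRX and 0.486 for BRXL2). Another intron maturase gene, AT5G04050, was at 12.9 and 69.6 CPM in myrBRX, 9.12 and 9.34 CPM in BRXL2, and 9.42 and 12.5 CPM in the libraries labelled BRX (0.382 for myrBRX against BRXL2).

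Alternative oxidases pass electrons to oxygen without pumping protons. With other genes and transcription factors tied to the response to disturbed mitochondrial function, they made up the fourth list. In myrBRX against the libraries labelled BRX, 6 of its 8 tested members did not overlap and were higher (background 26.7%), 1 was lower (22.4%), and the median log2 fold change was 2.24 (all loci -0.03). In myrBRX against BRXL2, 5 were higher without overlap (background 24.3%), 1 was lower (24.7%), and the median was 1.52 (all loci -0.15), with values of 2.89 without BRXL2 2, 0.95 without myrBRX 1 and 0.85 without BRXL2 1. For BRXL2 against the libraries labelled BRX the median was -0.05, with 1 member higher without overlap (18.3%) and 1 lower (14.9%). The members at an unadjusted p under 0.05 numbered 3, 2 and 1 in this order of comparisons, against 14.2%, 12.4% and 8.85% of all loci. AT2G21640 is among the higher members, and among those at that p, in both comparisons of myrBRX. It could pass the filter only through myrBRX, so the filter favoured its higher direction there.

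AT5G51440, a small heat shock protein of the HSP20 type, was at 1092 and 398 CPM in myrBRX, 172 and 394 CPM in BRXL2, and 145 and 143 CPM in the libraries labelled BRX (myrBRX against the libraries labelled BRX 2.37 ± 0.94, adjusted p = 0.299). AOX1A, an alternative oxidase gene, was at 66.8 and 72.7 CPM in myrBRX, 10.9 and 139 CPM in BRXL2, and 6.50 and 18.7 CPM in the libraries labelled BRX (2.47 ± 1.09, 0.334). The myrBRX libraries lay between the BRXL2 libraries for AOX1A and above both for AT5G51440, by little against BRXL2 2. NAC13, a transcription factor of this response, was at 55.5 and 40.9 CPM in myrBRX, 2.68 and 28.3 CPM in BRXL2, and 11.6 and 10.6 CPM in the libraries labelled BRX. AT2G21640, a gene that responds to oxidative stress, had 482 and 20 counts in myrBRX, 0 and 0 in BRXL2, and 0 and 8 in the libraries labelled BRX (adjusted p = 0.235 against BRXL2 and 0.315 against the libraries labelled BRX), most of them in myrBRX 1. This gene could pass the filter only through myrBRX. NAC017, another transcription factor of the response and the member that was lower without overlap in the first comparison, was at 34.7 and 38.9 CPM in myrBRX, 36.4 and 30.2 CPM in BRXL2, and 78.6 and 53.8 CPM in the libraries labelled BRX. BCS1, lower without overlap in myrBRX than in BRXL2, was at 0.872 and 0 CPM in myrBRX, 75.7 and 10.7 CPM in BRXL2, and 0.0915 and 12.4 CPM in the libraries labelled BRX. Its log2 fold change of -6.63 ± 2.20 for myrBRX against BRXL2 (adjusted p = 0.28) passed in edgeR without the filter (5.07e-05), where 2.92% of all loci passed. Without myrBRX 1, myrBRX 2 is alone at 0 counts and is assumed to vary like the libraries of the other lines, so that fit is not read as a call. AOX1C and AOX2 were not tested, with at most 0.260 and 0.107 CPM in any library.

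**Figure D5:**
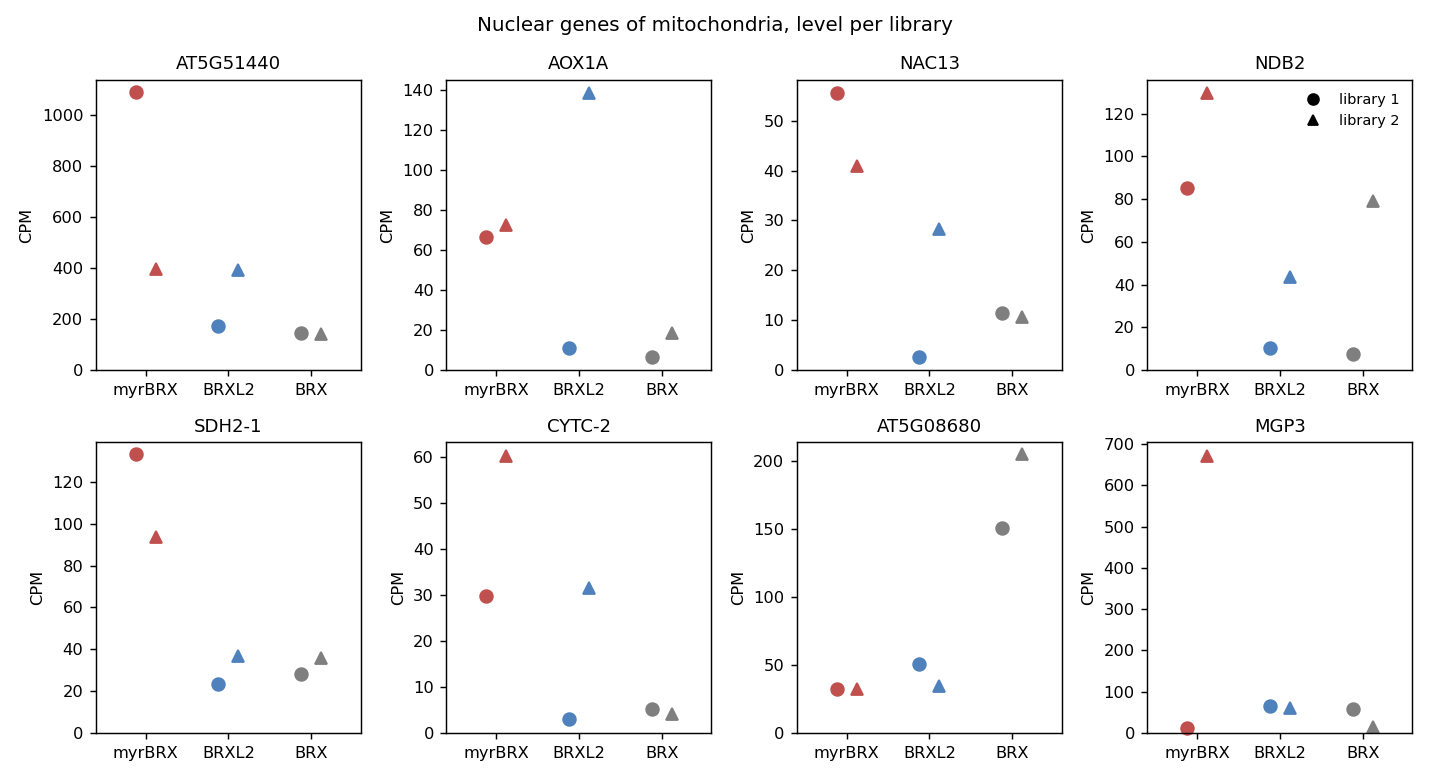
Level per library (CPM, linear axes from 0) of 8 nuclear genes of mitochondria; circles and triangles are libraries 1 and 2 of myrBRX, BRXL2 and the libraries labelled BRX, from left to right. SDH2-1 and NAC13 have both myrBRX libraries above the other 4, AT5G08680 has both libraries labelled BRX on top at 151 and 205 CPM, and MGP3 is at 671 CPM in myrBRX 2 and 10.8 CPM in myrBRX 1.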

How the data were processed

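Libraries of sorted leaf cells were made with a NuGEN Ovation kit and read on an Illumina HiSeq, per the labels' protocols. The deposited values are raw counts per locus, 1 table for each of the 6 libraries, as their whole values and unequal totals show. Per the submitters' processing notes, reads were aligned with Bowtie2 to TAIR10; the counting program, its strand setting and its treatment of reads with several matches are not given in the sources used here.

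EdgeR 4.0.16 (R 4.3.3) was run on the counts of all 6 libraries, with filterByExpr at its minimum of 10 counts, TMM factors, 1 coefficient a line and 3 residual degrees of freedom; SE is the size of the log2 fold change over the square root of F. The biological coefficient of variation was 0.884. DESeq2 1.42.0 and limma-voom (limma 3.58.1) were alternatives. The edgeR steps were run on simulated counts with a common dispersion for all loci. That run checked the code and not its power in these data. Whether the libraries of 1 line are separate cultures of plants is not in the labels, so the p-values rest on a spread that may be technical. Intervals and the limit of 3 counts cover counting error only, since amplified reads are not independent molecules. Gene models, notes and sequences came from RefSeq TAIR10.1, whose mitochondrial genome was not matched to the ATMG identifiers, so lengths were not used and levels were not compared between genes per length.

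Named loci were ATMG00020, ATMG01390 and ATMG01380, the most abundant 10, the tested described ones, any called locus, the 4 of lowest p in each direction and pair of lines, the 3 of widest ratio within a line and the 2 members of lowest p in each list; the runs of 0 counts, the nuclear copies shown and other list members were chosen after their values were seen. Members and lists were chosen with earlier results of these data known.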

Additional observations from a re-analysis of the deposited data

How the results depend on the processing

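The number of ATMG loci called in myrBRX against the libraries labelled BRX, 0 in edgeR, was 2 without a filter (77 loci tested, 3.21% of all loci called) and 4 with DESeq2 (8.07%). The number for any difference among the lines, also 0, was 3 in each of these (6.32% and 8.67%); leaving out 1 library gave 0 to 2 for both. The 2 other comparisons gave 0 calls under every alternative run. The medians of the tested loci changed sign without BRX 1 alone, and with 1 library left out ran from -1.72 to 0.072 for myrBRX against the libraries labelled BRX, from -0.62 to 1.05 for BRXL2 against the libraries labelled BRX and from -1.50 to -0.55 for myrBRX against BRXL2. The log2 ratio of the mitochondrial share, -2.88 for myrBRX against the libraries labelled BRX, was -1.78 without ATMG00020 and -1.61 without ATMG00020, ATMG01390 and ATMG01380; that of BRXL2 against the libraries labelled BRX, -1.05, was -0.087 without these 3; and that of myrBRX against BRXL2, -1.83, was -1.09 without ATMG00020. The loci left out hold most of the counts. Adding the nuclear copies, leaving AT1G79245 out of the total or using nuclear loci as the total moved these ratios by less than the spread within lines, as did leaving out any 1 library. Library totals without TMM factors moved the median of all loci by -0.22 in the first comparison and -0.30 in the third, and gave 39 of 49 ATMG loci below 0 in the first. Of 19 ATMG fold changes examined under these alternatives, 3 reversed, all without BRX 1 and against the libraries labelled BRX. With 1 library left out, ATMG00580 ran from -6.32 to 0.15 in myrBRX and from -5.37 to 1.13 in BRXL2, and ATMG00080 from -3.52 to 0.95 in BRXL2. The replicate number as a block gave 0 calls and medians of -1.11, -0.10 and -0.78; deviations of same-numbered libraries correlated at 0.058 to 0.127, and the labels tie no numbers to a shared batch. The alternatives for nuclear genes were chosen after seeing the data.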
